A study of Mus musculus with 11 samples.

Results

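Olfactory receptor gene clusters are long stretches of the mouse genome in which genes for odour receptors lie side by side. The 3 clusters described here were taken by position in mm9, from chr2:85000001-90100000, chr7:109600001-112000000 and chr9:37600001-40000000. On chromosome 7 the stretch chr7:110900001-111100000 was left out by the same rule. Cut into windows of 25 kb, the clusters held 388 windows (204, 88 and 96 on chromosomes 2, 7 and 9) of 105549 in the series. In 360 of them (191, 77 and 92) the ensemble map had at least 4 distinct restriction fragment ends, the minimum set for shares.

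Each olfactory receptor is a G protein-coupled receptor, and a mature olfactory neuron transcribes 1 receptor gene from 1 allele. In those neurons the other receptor genes are packed in heterochromatin, and clusters on different chromosomes are known to gather in shared foci. A helper T cell has no use for these receptors. The rule calls the clusters silent in T cells, but no RNA was measured, so neither that nor the cell type could be checked on these data.

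The maps came from Hi-C, which cuts chromatin with a restriction enzyme and ligates ends that were neighbours in the nucleus. A contact here is 1 such joined pair of ends. The cells were CD4+ Th1 cells grown from spleens of male C57BL/6 mice: stimulated with anti-CD3, bead-purified on CD4 and expanded in IL-2. Nuclei of 9 single cells and of 1 ensemble of cells were cut with Bgl II, and those of 1 further single cell, cell 8, with Dpn II, and the authors also deposited a pool of single-cell maps. All groups share strain, sex, tissue and culture, none was treated differently, and no label says which cells came from the same animal or culture. SDs and p-values over cells therefore measure only the spread between these cells, which may be technical.

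The ensemble held 51834382 distinct contacts, the Bgl II cells between 11156 and 30665 each, and cell 8 held 12225. The pool held 2294791 contacts, among them all 174955 of the 9 Bgl II cells. It is used without them, as a separate map of 2119836 contacts. Confidence intervals are at 95%, cover counting error only and say nothing of differences between cells. Every map lists a pair of ends once, so repeated ligations of a pair in many cells of the ensemble do not add to its count.

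Gene order was read from RefSeq genes of GRCm38.p6, a later build than mm9, so the genes were counted as runs between neighbours and were not assigned to windows. On chromosome 2 the run held 222 olfactory receptor genes, from Olfr987 to Olfr1274, between Lrrc55 and Ptprj, with 3 other genes among them. The chromosome 9 run, between Panx3 and Zfp202, held 95 receptor genes and 3 others. The run on chromosome 7 was more mixed: 126 receptor genes lay between Rrm1 and Fam160a2, with 27 other genes. Among the latter were beta-globin genes such as Hbb-bs and Hbb-y, which encode subunits of haemoglobin, and Trim genes such as Trim21 and Trim30a, whose family includes ubiquitin ligases that act in antiviral defence.

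In the maps cut with Bgl II the assay sees the clusters only at Bgl II sites, AGATCT, a palindrome that reads the same on both strands. RefSeq promoters (250 bases before to 50 after the start) were found for 374 of the 443 receptor genes of the runs. Their median GC content was 34% (32% on chromosome 2, 37.3% on chromosome 7, 35.3% on chromosome 9), beside 52.7% over all 27025 promoters of the table. Of these receptor promoters, 36 (9.63%) held the site, beside 7.42% of all promoters. From each run, 1 promoter with the site follows on GRCm38.p6, from 5′ to 3′, with the recognition site in capitals, to show the letters the enzyme reads. Their GC content was 35.3% (Olfr996), 40.3% (Olfr551) and 46% (Olfr160), each above the median of its run.
Olfr996 (chr2:85578965-85579264, plus strand): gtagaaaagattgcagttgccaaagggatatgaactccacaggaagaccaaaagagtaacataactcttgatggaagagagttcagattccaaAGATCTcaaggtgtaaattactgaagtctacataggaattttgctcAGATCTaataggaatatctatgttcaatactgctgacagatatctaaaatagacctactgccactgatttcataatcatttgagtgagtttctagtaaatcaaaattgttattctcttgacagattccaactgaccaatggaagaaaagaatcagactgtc
Olfr551 (chr7:102588770-102589069, minus strand): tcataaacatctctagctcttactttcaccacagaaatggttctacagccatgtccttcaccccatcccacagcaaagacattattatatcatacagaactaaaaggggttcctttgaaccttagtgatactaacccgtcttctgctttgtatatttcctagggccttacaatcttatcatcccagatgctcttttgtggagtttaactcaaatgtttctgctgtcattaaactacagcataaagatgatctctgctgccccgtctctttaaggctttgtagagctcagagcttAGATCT
Olfr160 (chr9:37712231-37712530, minus strand): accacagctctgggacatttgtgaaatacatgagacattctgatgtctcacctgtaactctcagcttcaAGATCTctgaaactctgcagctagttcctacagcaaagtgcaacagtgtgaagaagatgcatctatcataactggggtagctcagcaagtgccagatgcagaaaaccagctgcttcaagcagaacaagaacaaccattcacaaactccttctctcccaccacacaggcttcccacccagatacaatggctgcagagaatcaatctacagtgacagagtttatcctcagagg
In the Olfr996 promoter the site occurs 2 times, in the other two 1 time each. A site in these letters is a description and does not show that it was cut or ligated in a cell.

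Compartments are the large-scale division of chromosomes into an open, gene-rich set of regions and a closed set that contact each other preferentially. Here the score was the leading eigenvector of the ensemble's cis map in bins of 1 Mb. Positive scores (class 1) were those on the side with more fragment ends. The olfactory receptor clusters lay almost wholly in class 2. Of the 388 windows, 368 (94.8%) were in class 2, beside 62.8% of autosomal windows. The median score was -1.20 on chromosome 2, -1.02 on chromosome 7 and -1.08 on chromosome 9, beside -1.07 in class 2 windows elsewhere on the autosomes. Of class 2 windows elsewhere, 21.7% scored lower than the chromosome 2 median, 55.1% lower than that of chromosome 7 and 48.4% lower than that of chromosome 9. The low position of chromosome 2 did not hold in finer bins. With 250 kb its median was -0.87 beside -0.88 in class 2 elsewhere, and with 100 kb -0.66 beside -0.69, while chromosome 9 had the lowest median of the 3 clusters in both (-1.08 and -0.89).

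The 20 windows outside class 2 were all at an edge. On chromosome 7, 16 windows shared the bin chr7:109000001-110000000, which scored 1.16, and on chromosome 2, 4 windows lay in the bin chr2:90000001-91000000, which scored 1.18. With bins of 100 kb, 364 of the 368 windows with a score (98.9%) were in class 2, and all 4 of the others lay in the first bin of the chromosome 7 cluster.

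In these finer bins the score on chromosome 7 dropped from 1.57 just before the cluster to 0.42 in its first bin and -0.19 in the next. It stayed between -0.88 and -0.53 over most of the cluster but came close to 0 near its right end, at -0.19, -0.00 and -0.23 in the scored bins starting at 111300001, 111500001 and 111600001. The left-out stretch had a median of -0.61, between the bins on either side of it (-0.55 and -0.74). On chromosome 9 no bin of the cluster scored above -0.68, and on chromosome 2 no scored bin was above -0.48. Beyond the right edge of the chromosome 2 cluster the score reached 0.32 in the bin starting at 90300001 and 1.26 in that starting at 90500001.

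**Figure D1:**
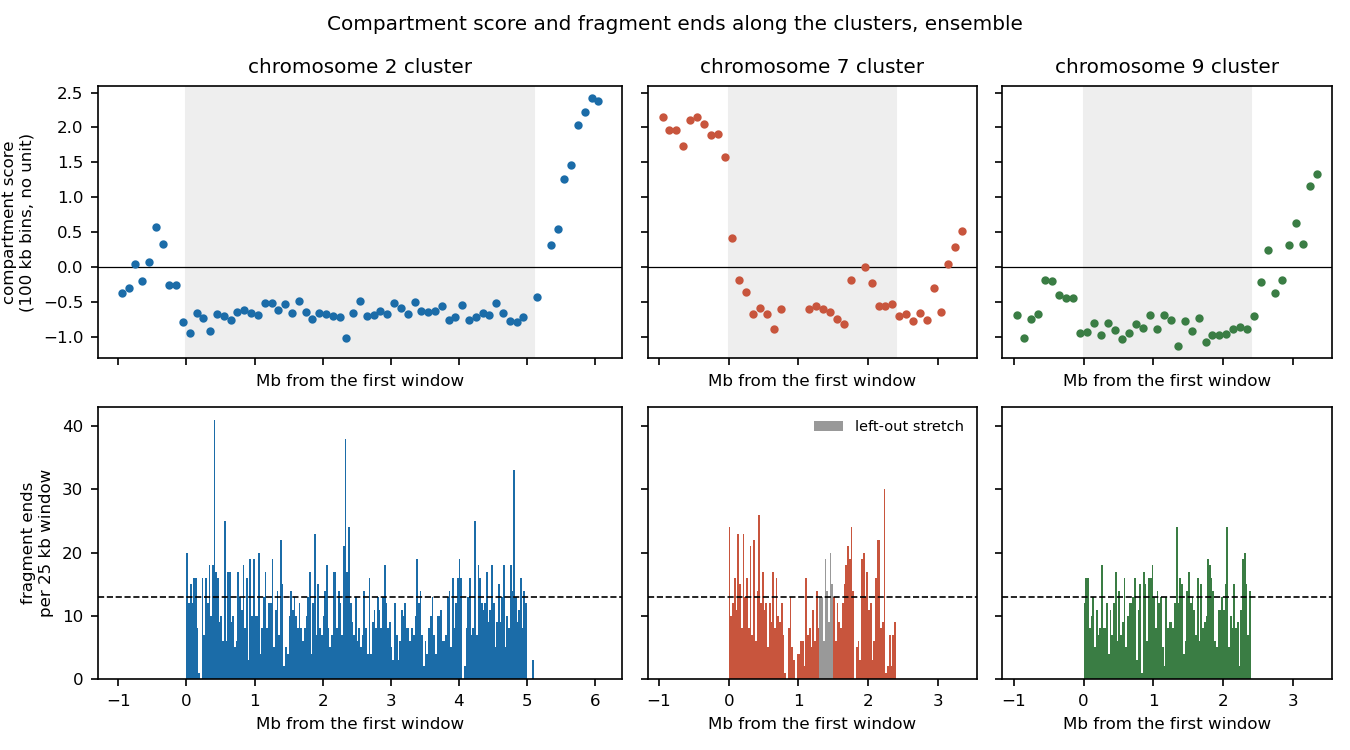
The upper row plots the compartment score of the ensemble in 100 kb bins (no unit) and the lower row the distinct fragment ends in each 25 kb window, against Mb from the first window of each cluster. Grey shading marks the cluster, the dashed line is the median of 13 fragment ends in class 2 windows elsewhere, and scores are below 0 in all scored bins inside except the first on chromosome 7.

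Fewer restriction fragment ends were seen in the receptor clusters than in the rest of class 2. A distinct fragment end is a site that was cut, ligated and mapped at least once. The ensemble had a median of 11 per window in the clusters (10 on chromosome 2, 10.5 on chromosome 7, 11.5 on chromosome 9), beside 13 in class 2 elsewhere and 15 in class 1. Of the 360 windows with at least 4 fragment ends, 216 (60%) were below the class 2 median, beside 46.4% of class 2 windows elsewhere. All 3 clusters showed it: 61.8% on chromosome 2, 58.4% on chromosome 7 and 57.6% on chromosome 9. The left-out stretch had a median of 13.5. Windows under the minimum made up 28 of 388 (7.22%), beside 4.27% of class 2, and they were most frequent on chromosome 7 (12.5%).

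The pool gave the same order, with a median of 7 per window in the clusters against 9 in class 2 and 243 of 388 windows (62.6%) below, beside 43.4%. Windows within a cluster differed widely. On chromosome 2 the richest window, chr2:85400001-85425000, had 41 fragment ends, whereas 5 windows had none. The richest on chromosome 7, chr7:111825001-111850000, had 30, and 3 windows had none. On chromosome 9 the range was narrower, from 1 at chr9:38425001-38450000 to 24, which was reached in 2 windows, among them chr9:38925001-38950000.

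Poor windows were scattered and mostly single. The longest stretch under the minimum was chr2:90000001-90100000, where 4 windows at the right end of the chromosome 2 cluster had 3 fragment ends in all. The empty chr2:85200001-85225000 of the ensemble had 10 contact ends in the pool without the 9 cells, and the poorest chromosome 9 window, with 1 contact end in the ensemble, also had 10. Thus the windows poor in the ensemble were not all without sites. Repeats, mappability and the number of recognition sites were not measured, and their part in the lower density was not tested.

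Each fragment end of the clusters also carried fewer contacts. In the ensemble, windows with the minimum had 37.9 contact ends per fragment end on chromosome 2, 57.8 on chromosome 7 and 42.9 on chromosome 9, beside 60.3 in class 2 elsewhere and 103.2 in class 1. In the pool without the 9 cells the values were 2.45, 2.87 and 2.53, beside 3.06. In regions of 500 kb, 17 of the 19 cluster regions of class 2 were below the class 2 median of 54.2 in the ensemble, and 17 of 19 were below that of 3.07 in the pool without the 9 cells. On chromosome 7 the class 1 region at the left edge of the cluster, chr7:109500001-110000000, had 84.2 in the ensemble. The class 2 regions chr7:111000001-111500000 and chr7:111500001-112000000, at its right end, had 62.4 and 55.4, both above the class 2 median.

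The single cells varied more. On chromosome 2, contact ends per fragment end over that of class 2 in the same cell ranged from 0.715 to 1.16 with a median of 0.842 (mean 0.893 ± 0.167, SD, n = 9), and 7 of 9 cells were below 1. On chromosome 7 the ratio ranged from 0.463 to 1.14, with a median of 0.810 (mean 0.831 ± 0.194, SD, n = 9), and 8 of 9 cells were below 1. The chromosome 9 ratio was centred near 1, from 0.689 to 1.32 with a median of 0.990 (mean 0.979 ± 0.224, SD, n = 9), with 5 of 9 cells below 1.

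These cells were the only replicated samples, and limma was fitted over them across all 4638 autosomal regions of 500 kb with enough contacts, 20 of them in the clusters (10, 5 and 5). The measure was the residual of a region's contact ends from the rate of its class in the same cell, scaled by its counting error. No cluster region passed an adjusted p of 0.05 (Benjamini-Hochberg over all regions), and 0% of all regions did in either direction. At an unadjusted p under 0.05 there were 2 of 20 cluster regions and 484 of 4638 in all. The lowest adjusted p in a cluster, 0.144 by limma, was at chr2:89500001-90000000, whose mean residual was -1.30 ± 0.463 (SD, n = 9) and below 0 in 9 of 9 cells. That region had 33 contact ends in the 9 cells together on 252 fragment ends. Next came chr7:111500001-112000000, with 35 contact ends on 236 fragment ends, a mean residual of -1.15 ± 0.948 (SD, n = 9), below 0 in 8 of 9 cells, and an adjusted p of 0.25 by limma. Both regions had 3.2 contact ends per fragment end in the pool without the 9 cells, above the class 2 median of 3.07. On simulated data with planted changes, this fit called 100 of 100 doubled and 94 of 100 halved regions. The simulated counts varied by counting error alone, whereas SDs of the real cluster residuals, in units of that error, ran from 0.463 to 1.60. How often real changes of this size would be called was not tested.

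A contact in trans joins 2 chromosomes, and its share shows how much of a region's contacts leave its own chromosome. The clusters did not share a trans pattern. In the pool without the 9 cells, 12.8% of contact ends on chromosome 2 were in trans (11.95 to 13.7%), beside 18.0% in class 2 elsewhere, whereas chromosome 7 had 18.4% (17.0 to 19.9%) and chromosome 9 had 18.99% (17.6 to 20.5%). All 10 regions of the chromosome 2 cluster were below the class 2 median of 17.6%, between 9.55 and 16.3%. Chromosome 2 itself had a lower share: its class 2 windows outside the cluster had 15.2%, against which the cluster was lower by 2.35 percentage points. Class 2 on the same chromosome had 17.1% on chromosome 7 and 19.1% on chromosome 9.

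In the cells, the trans share on chromosome 2 ranged from 2.17 to 16.7% with a median of 11.5%, and that of class 2 in the same cells from 5.16 to 24.2% with a median of 16.6%. The cluster was below class 2 in 8 of 9 cells, by a mean difference of -5.24 ± 5.03 points (SD, n = 9). The exception was cell 1, with 8.86% against 5.16%. Against class 2 of chromosome 2 alone the difference was -3.37 ± 4.87 points (SD, n = 9), again below in 8 of 9 cells. Summed over the 9 cells, 53 of 507 contact ends were in trans. In cell 8, cut with Dpn II, 5 of 35 were, a difference of -5.68 points from class 2 but of 1.42 points above class 2 of the same chromosome.

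On chromosome 7 the share ranged from 0 to 38.9%, with a median of 22.6%, and differed from class 2 by 2.12 ± 11.7 points (SD, n = 9), below in 4 of 9 cells. This mean rests on cell 7, where 7 of 18 contact ends were in trans: without it the mean was -0.95 points. In cell 1 none of 30 contact ends was in trans, which allows a share of up to 10%, and in cell 6 none of 11, which allows up to 27.3%. On chromosome 9 the share ranged from 0 to 38.7%, with a median of 18.2% and a difference of 4.07 ± 7.95 points (SD, n = 9), below class 2 in 3 of 9 cells. Without cell 4, where 12 of 31 contact ends were in trans, it was 2.41 points. Cell 1 had 0 of 51 there, which allows up to 5.88%. In cell 8, 3 of 10 contact ends were in trans on chromosome 7 and 7 of 14 on chromosome 9, differences from class 2 of 10.04 and 30.04 points. With this cell included the chromosome 9 mean over the 10 cells was 6.67 points. For these 2 clusters the spread between cells was larger than the mean difference. The same held for chromosome 2 against class 2 of its own chromosome (-3.37 ± 4.87 points, SD, n = 9).

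**Figure D2:**
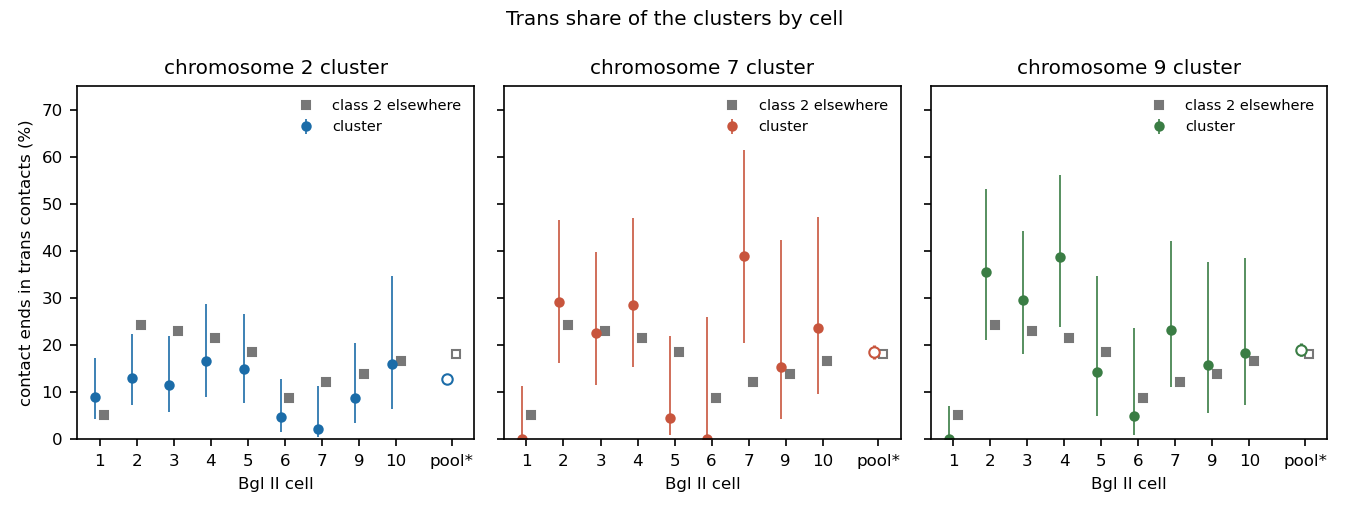
Percent of contact ends in trans contacts in each Bgl II cell and in the pool without the 9 cells (pool*), for each cluster (circles, 95% Wilson intervals) and for class 2 elsewhere (squares). On chromosome 2 the circle lies below the square in 8 of 9 cells and in the pool, whereas on chromosomes 7 and 9 circles lie on both sides.

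The fit of the trans share by limma, over the same regions and cells, called none of the 20 cluster regions, and 0% of the 4638 regions in either direction. At an unadjusted p under 0.05 there were 1 of 20 cluster regions and 430 of 4638 in all. Mean residuals were below 0 in 9 of 10 regions on chromosome 2, 3 of 5 on chromosome 7 and 1 of 5 on chromosome 9, beside 51.4% of class 2 regions elsewhere. The lowest adjusted p in a cluster was 0.527 by limma, at chr2:85500001-86000000, with 4 trans ends among 61 and a residual below 0 in 8 of 9 cells. Depth limits this fit. On simulated data with counting error alone, it called 13 of 100 regions whose odds of trans against cis were doubled. Of regions with halved odds it called 0 of 100.

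The ensemble gave another picture. Its trans share was 49.1% on chromosome 2, 50.7% on chromosome 7 and 49.0% on chromosome 9, all within 1.04 points of the 49.6% in class 2 elsewhere. Against class 2 of the same chromosome, at 45.95%, 47.5% and 48.6%, the clusters were higher by 3.13, 3.17 and 0.379 points, the last with an interval from -0.08 to 0.83. On chromosomes 2 and 9 this is the opposite direction to the comparison with all class 2. Regions within a cluster spread over a few points. On chromosome 2 they ran from 46.4% at chr2:88500001-89000000 to 50.9% at chr2:89500001-90000000, and on chromosome 7 from 48.3% at chr7:110500001-111000000 to 53.6% at chr7:111500001-112000000. On chromosome 9 the lowest was 47.7% at chr9:37500001-38000000 and the highest 50.7% at chr9:39500001-40000000. The pool without the 9 cells kept this order on chromosome 7 (13.3 and 19.1%, lowest of the ensemble first) and had the opposite order on chromosomes 2 (14.3 and 12.2%) and 9 (19.3 and 16.3%).

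Contacts between the clusters were then counted, since gathering of receptor clusters in trans is what olfactory neurons show. In the ensemble 70 contacts joined 2 of the clusters, where the trans contacts of each cluster with the other chromosome gave an expectation of 57.7, a ratio of 1.21 (0.946 to 1.53). The clusters of chromosomes 2 and 7 had 40 contacts against 27.3 expected, a ratio of 1.46 (1.05 to 1.99), beside 1.18 for class 2 with class 2 on the same chromosomes. Those of chromosomes 2 and 9 had 20 against 17.9, a ratio of 1.12 (0.683 to 1.73), beside 1.23. Those of chromosomes 7 and 9 had 10 against 12.5, a ratio of 0.802 (0.385 to 1.47), beside 1.15. The class 2 value lay inside the interval for each pair, so no excess over other class 2 pairs was detectable at this depth.

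Contacts of a cluster with class 2 on the partner chromosome were at ratios close to those of other class 2 windows. The cluster on chromosome 2 had 1.19 times the expected contacts with class 2 of chromosome 7 and 1.24 times those with class 2 of chromosome 9. The chromosome 7 cluster had 1.18 times those with class 2 of chromosome 9.

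**Figure D3:**
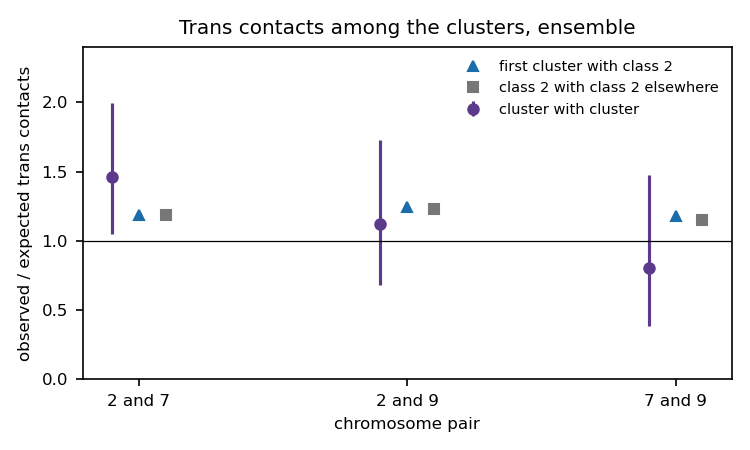
Observed over expected trans contacts in the ensemble for each chromosome pair: cluster with cluster (circles, 95% Poisson intervals), the first-named cluster with class 2 of the other chromosome (triangles) and class 2 with class 2 elsewhere (squares). The squares and triangles lie inside all 3 intervals.

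By 500 kb region, 43 of the 110 pairs of regions in different clusters (39.1%) had at least 1.5 times the expected contacts, beside 33.2% of all 84939 class 2 region pairs on these chromosomes. The median expectation was 0.360 to 0.544 contacts per pair, so a single contact often passed the threshold. With regions of 250 kb the order turned, at 13.0% of cluster pairs beside 29.1%. At 2 times expectation it was 30% beside 19.4%, and with 1 Mb regions 33.3% beside 25.1%. The direction thus depended on the region size, and no excess particular to the clusters is read from these shares.

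The pool without the 9 cells had 1 contact joining 2 clusters, those of chromosomes 7 and 9, where 1.02 were expected over the 3 pairs. In the single cells there was also 1, between chromosomes 2 and 9 in cell 7, a cell in which these chromosomes had 58 contacts with each other. Gathering of the clusters in individual T cells could not be measured at these depths.

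Distant partners in cis of the 3 clusters together were more often in class 2 than those of class 2 elsewhere on the autosomes, most on chromosome 9. Of contacts over 10 Mb away on the same chromosome, 85.4% (84.3 to 86.4%) had their partner in class 2 in the pool without the 9 cells, beside 77.4% for class 2 windows elsewhere and 43.6% for class 1. The share was 91.6% on chromosome 9, 85.0% on chromosome 2 and 79.7% on chromosome 7, where the interval (77.0 to 82.1%) holds the class 2 value. In the ensemble it was 69.7% against 64.4%, with 77.4% on chromosome 9, 72.4% on chromosome 7 and no excess on chromosome 2 (64.4%). A cis partner can lie only on the cluster's own chromosome. Outside the clusters, class 2 made up 56.5%, 65.8% and 62.9% of scored windows on chromosomes 2, 7 and 9. Each cluster was not compared with class 2 of its own chromosome, so the part of chromosome composition in these differences was not tested.

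In the cells it ranged from 64 to 89.5% with a median of 84.8%, against 71.7 to 79.6% with a median of 78.0% for class 2 elsewhere. It was above class 2 in 8 of 9 cells, by 7.11 ± 7.31 points (SD, n = 9), and by a mean of 3.88 points with classes set at 250 kb. Cell 4 was the exception at -8.35 points, and without it the mean was 9.04 ± 4.76 points (SD, n = 8). Against class 2 of the same 3 chromosomes the mean over the 9 cells was 8.24 points. In cell 8, 18 of 20 such partners were in class 2. The difference was 15.2 ± 11.9 points on chromosome 9 (SD, n = 9, above in 8 of 9 cells), 4.60 ± 13.5 points on chromosome 2 (SD, n = 9, above in 8 of 9) and 1.13 ± 15.5 points on chromosome 7 (SD, n = 9, above in 6 of 9). On chromosomes 2 and 7 the spread between cells was larger than the difference. Without cell 4, which stood at -30.0 points on chromosome 2 (11 of 26 partners), the chromosome 2 mean was 8.93 ± 3.87 points (SD, n = 8).

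In trans, 70.6% (68.4 to 72.6%) of partners were in class 2 in the pool without the 9 cells, beside 65.7%. There it was 72.2% on chromosome 2, 64.4% on chromosome 7 and 74.4% on chromosome 9. In the cells the difference was 7.54 ± 9.14 points (SD, n = 9), above in 7 of 9. It did not hold with classes set at 250 kb, where the mean was -0.47 points, and in the ensemble 52.4% stood beside 52.1%.

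**Figure D4:**
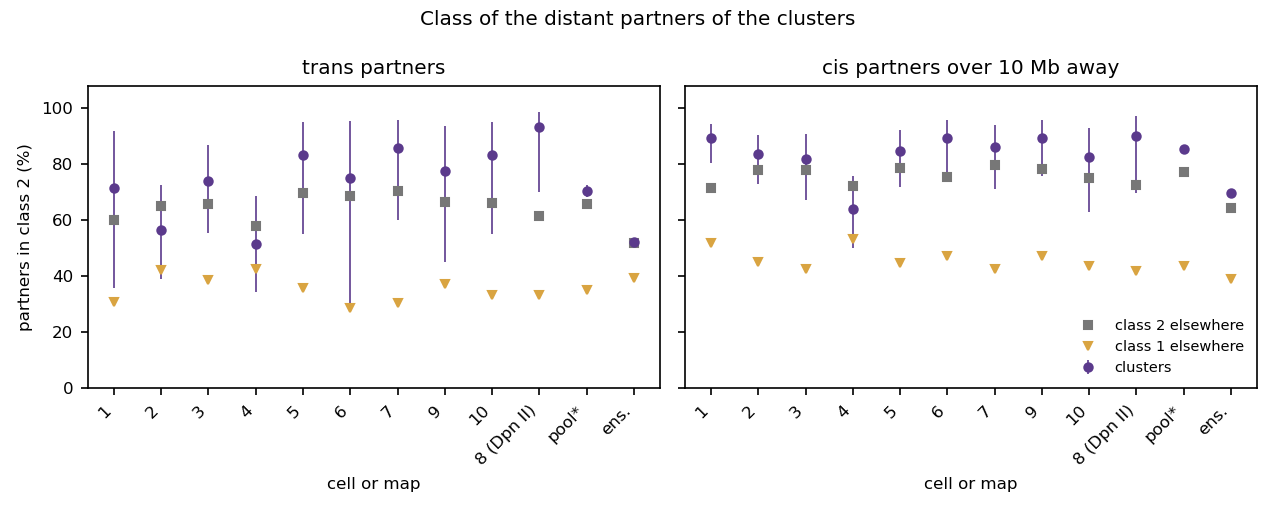
Percent of distant partners in class 2 for the 3 clusters together (circles, 95% Wilson intervals), class 2 elsewhere (squares) and class 1 elsewhere (triangles), in each cell, the pool without the 9 cells (pool*) and the ensemble (ens.). For cis partners the circle lies above the square everywhere except in cell 4.

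Along each chromosome the ensemble showed which stretches these were. Of 1 Mb bins over 5 Mb from the cluster with at least 20 expected contacts, class 2 bins exceeded expectation in 85 of 90 on chromosome 2, 69 of 74 on chromosome 7 and 65 of 70 on chromosome 9. Class 1 bins did so in 22 of 71, 6 of 38 and 2 of 39. Because the classes were set on this same map, that split was largely fixed in advance. The pool without the 9 cells gave class 2 bins together 1.58, 1.17 and 1.81 times expectation on chromosomes 2, 7 and 9. Class 1 bins together stood at 0.353, 0.618 and 0.284 there. The highest bins, which were read from the same map as the classes, were all in class 2. On chromosome 9 the cluster met chr9:6000001-7000000 at 4.23 times expectation and chr9:3000001-4000000 at 4.11 times. On chromosome 2 the highest was chr2:7000001-8000000 at 2.61 times, followed by chr2:67000001-68000000 at 2.50. On chromosome 7 the highest, chr7:141000001-142000000, reached 1.79. In the pool without the 9 cells, which did not set the classes, these bins stood at 6.13, 3.52, 3.98, 2.38 and 1.77 times expectation in the same order.

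Inside the clusters, whether contacts were dense or sparse depended on what they were counted against. Per pair of windows at the same distance, from 50 kb to 1 Mb, the ensemble had 0.318 times the class 2 density on chromosome 2, 0.618 on chromosome 7 and 0.388 on chromosome 9. In the pool without the 9 cells these were 0.565, 0.779 and 0.570. In the 9 cells summed they were 0.790 (0.571 to 1.06) from 43 contacts, 0.710 (0.367 to 1.24) from 12 and 0.740 (0.438 to 1.17) from 18.

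Per pair of fragment ends the values moved up, to 0.434, 0.764 and 0.532 in the ensemble and 0.770, 0.945 and 0.787 in the pool without the 9 cells. Per pair of contact ends, which allows for windows that had few contacts of any kind, they passed 1 on chromosomes 2 and 9. There the ensemble gave 1.24 (1.19 to 1.30) and 1.21 (1.13 to 1.28), and the pool without the 9 cells 1.23 (1.12 to 1.35) and 1.19 (1.03 to 1.37). On chromosome 7 the values were 0.934 (0.882 to 0.989) and 1.08 (0.931 to 1.24).

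**Figure D5:**
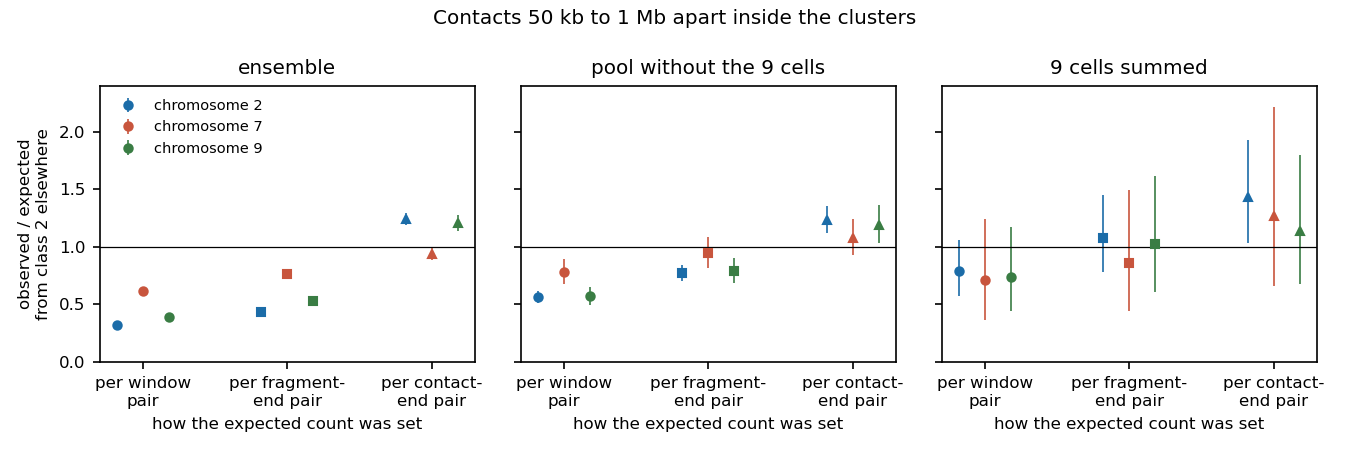
Observed contacts 50 kb to 1 Mb apart within each cluster over those expected from class 2 elsewhere at the same distances, with 95% Poisson intervals, when the expectation is set per pair of windows, of fragment ends or of contact ends. The ratios climb from left to right in each map and end above 1, except on chromosome 7 in the ensemble. In the 9 cells summed the last intervals hold 1 on chromosomes 7 and 9. In the pool without the 9 cells that of chromosome 7 does too.

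Domains are stretches whose loci contact each other more than their neighbours, and they were called from the insulation of the ensemble in 50 kb bins. The clusters held 17 domains (9, 4 and 4) with a median length of 550 kb, beside 600 kb in class 2 elsewhere, and 17 borders over 9.9 Mb with the left-out stretch, or 1.72 per Mb beside 1.5. Borders inside were mostly of middling strength: their median prominence, the depth of the insulation minimum, was 0.369, beside 0.290 in class 2 elsewhere. By cluster it was 0.322, 0.484 and 0.212 on chromosomes 2, 7 and 9. The borders at 109650001 and 39950001, at cluster edges, are counted among them. With a prominence of at least 0.2 the order turned, at 0.407 in the clusters beside 0.525 in class 2 elsewhere. The number of borders moved with the settings, to 35 with a window of 250 kb and 31 with bins of 25 kb. In class 2 elsewhere it moved as well, from 2219 to 4252 and 2932. With a prominence of at least 0.2 there were 14 in the clusters and 1423 in class 2 elsewhere.

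In each cluster the strongest border stood at an edge. At the right edge of the chromosome 2 cluster the border at 90250001 had a prominence of 2.02, stronger than 97.2% of all borders, and at the left edge that at 84900001 had 1.23, stronger than 90.3%. Chromosome 7 had its strongest at the left edge, at 109650001 (1.63, stronger than 94.5%), and chromosome 9 at the right edge, at 39950001 (1.15, stronger than 88.8%). The left edge on chromosome 9 was weaker, with 0.466 at 37500001. To the right of the chromosome 7 cluster the next border was at 112650001 (0.916), beyond the end set by the rule. Between its edges the strongest border of the chromosome 2 cluster was at 86450001 (0.884).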

How the data were processed

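The deposited files list 1 contact per line as 2 chromosomes and positions in bp, per the file headers, without read numbers. Per the submitters' processing notes, positions are on mm9. An aligner and read filters were not given in the sources used here. Members and lists were chosen with earlier results of these data known. Contacts were counted in 25 kb windows. Scores came from the ensemble's cis correlation matrix after 50 rounds of balancing, with the sign set by fragment-end density. Class 2 elsewhere means autosomal windows outside the clusters. Borders were insulation minima (window 500 kb, prominence at least 0.1). Regions fitted had at least 20 fragment ends and 30 contact ends in the cells, and at least 80% of a cluster region's windows were members. The regions chr7:110500001-111000000 and chr7:111000001-111500000 include windows of the left-out stretch. Those at chr7:109500001-110000000 and chr9:37500001-38000000 include windows before the start of the cluster. The regions named are the highest and lowest in trans share, the windows with most and fewest fragment ends, the borders, the left-out stretch and, chosen after their values were seen, those with the lowest p. Software was Python 3.11.15, numpy 2.4.6, scipy 1.17.1, pandas 2.3.3, matplotlib 3.10.9, R 4.3.3 and limma 3.58.1, tested on simulated data with 200 planted regions (unchanged regions were called in 2 of 4438 for trans share and 10 of 4438 for contact ends). Alternatives were other bins, distances, thresholds, comparison windows and cells left out. Summed cluster values have no p. Shares have Wilson and ratios exact Poisson intervals, and the limit for a count of 0 is 3 counts.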

Additional observations from a re-analysis of the deposited data

Results flagged for a closer look

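In cell 4 the chromosome 2 cluster stood far from the other 8 Bgl II cells in the class of its distant partners. The share of its cis partners over 10 Mb away that lay in class 2 differed from that of class 2 elsewhere by -30.0 points, against a median of 7.06 points over the 9 cells. It rested on 11 of 26 partners (42.3%, 25.5 to 61.1%). In the same cell the share was 72.4% for class 2 elsewhere and 53.2% for class 1. Without this cell the mean over the other 8 was 8.93 ± 3.87 points (SD, n = 8). This was 1 flag among 16 sets of values examined, where chance alone flags about 1 set in 20.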

How the results depend on the processing

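Of 220 values under other settings, over 29 results, 181 stayed within the spread or limit set for them, 30 moved and 9 turned direction. For means over cells the limit was the SD over cells, which leaving a single cell out could not exceed. Values within it could still change sign, and these count among the 181. The trans partner difference went from 7.54 to -0.47 points with classes at 250 kb. The chromosome 7 trans share difference went from 2.12 to -0.95 points without cell 7. The share of windows in class 2 was 98.4% with 250 kb bins, 98.9% with 100 kb bins and 99.0% without balancing, beside 61.4%, 61.5% and 42.9% of autosomal windows. Without balancing all 5045 scored windows of chromosome 7 outside the cluster were in class 2, so that setting says nothing about its cluster. Against all windows, 66.4% of cluster windows were under the median of fragment ends. For the ensemble trans share, counting cis contacts over 20 kb gave differences of -1.03 points on chromosome 2 and -1.19 on chromosome 9, and class 2 of the 3 chromosomes gave 1.76, 3.36 and 1.67 points on chromosomes 2, 7 and 9. With class 2 of the same chromosome, a setting chosen after seeing the data, they were 3.13, 3.17 and 0.38 points. In the pool without the 9 cells the chromosome 2 difference was -4.17 points with class 2 of the 3 chromosomes and -2.35 with that of its own. Cluster region pairs past the threshold were 13.0% with 250 kb regions, beside 29.1% of class 2 pairs, and 30% at 2 times expectation, beside 19.4%. Local density per pair of fragment ends was 0.434, 0.764 and 0.532 on chromosomes 2, 7 and 9 in the ensemble, 0.770, 0.945 and 0.787 in the pool without the 9 cells and 1.07 on chromosome 2 in the cells summed. Per pair of contact ends, also chosen after seeing the data, it was 1.24, 0.934 and 1.21 in the ensemble, 1.23, 1.08 and 1.19 in the pool, and 1.43 and 1.27 on chromosomes 2 and 7 in the cells. With classes at 250 kb the ensemble gave 0.344, 0.673 and 0.422. On chromosome 7 it gave 0.720 at 50 to 250 kb and 0.510 at 250 kb to 1 Mb, and the pool 0.586 at the latter. Borders numbered 35 with a 250 kb window and 31 with 25 kb bins, beside 4252 and 2932 in class 2 elsewhere. No limma fit under any setting called a cluster region. The cause of these moves was not tested. In the cells, clusters were compared with class 2 of the same cell. Samples of different groups were not paired, because no label pairs them and no groups were compared. The cells' depth limits the trans share of single regions: of simulated regions with doubled odds of trans against cis, 13 of 100 were recovered.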
